A study of Caenorhabditis elegans with 12 samples.

Results

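The BATH, MATH and Skp1-related adaptor genes of C. elegans were taken as every locus of the count table that carried a gene name starting with bath-, math- or skr- followed by a number. The rule used names and no measured value, but the family was picked for description with earlier results of these data known. This gave 114 genes, 44 bath, 49 math and 21 skr, of 41420 loci in all. RNA sequencing was carried out on whole L4 worms after 6 h on agar plates, in 12 samples. There were 4 samples of osm-9(ok1677) at 200 mM NaCl, the hypertonic condition, 2 of wild type N2 at 200 mM, 4 of osm-9(ok1677) at 51 mM NaCl, the control condition, and 2 of N2 at 51 mM. osm-9 encodes a TRPV cation channel of sensory neurons that is needed for avoidance of hypertonic environments, ok1677 is a deletion allele, and the mutant worms came from the single strain VC1262, which develops somewhat slowly. Any other difference between VC1262 and N2 cannot be told apart from the deletion, and neither strain carried a transgene in these samples.

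Cullin-RING ubiquitin ligases attach ubiquitin to chosen proteins, most of which are then degraded by the proteasome, and the adaptor decides which protein is brought to the ligase. BATH proteins join a MATH domain, which binds the substrate, to a BTB domain, which binds the cullin CUL-3. Proteins of the math genes carry MATH domains, mostly without a BTB domain, and few have been studied. Skp1-related (SKR) proteins hold F-box proteins on CUL-1 or CUL-6. The worm has far more genes of all 3 kinds than mammals do, many of them in clusters of close copies.

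Total counts per sample were between 15949889 and 21418277, and 3 counts, the floor used here, corresponded to 0.140 to 0.188 CPM, the counts scaled to equal library size. Every level below is in CPM after TMM normalization unless a value per kb of exon is named. The label check could not be settled from expression. The osm-9 gene averaged 2.03 ± 0.569 CPM in the libraries labelled osm-9(ok1677) at 51 mM (SD, n = 4) and 0.783 ± 0.0899 CPM in N2 (SD, n = 2), a higher level in the mutant (log2 fold change 1.37, edgeR adjusted p = 0.0299), and reads summed over the whole gene cannot show whether the deleted part is missing. Libraries also differed in stage-related RNA. The summed level of 12 oocyte genes was between 1649 and 4850 CPM over the 12 samples, and 14 molting genes summed to between 623 and 1272 CPM in osm-9(ok1677) at 51 mM and between 292 and 341 CPM in N2. At 51 mM 6 of the 14 molting genes were higher in osm-9(ok1677) and none lower, none of the 12 oocyte genes was called, and of 33 sperm genes none was higher and 2 were lower, where 7.64% of all loci were higher and 4.63% lower. At the same concentration 2 of 4 epidermal collagen genes were higher, with sums between 158 and 721 CPM in osm-9(ok1677) and between 88.4 and 97.5 CPM in N2. The 6 yolk genes summed to between 9283 and 33510 CPM in osm-9(ok1677) and between 39506 and 44811 CPM in N2, and none of them was called. The part of these differences in the adaptor values between strains was not tested. In whole worms, fewer cells of a type and less RNA per cell cannot be told apart.

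All 114 genes were matched to the WBcel235 annotation, in which 20 of them (7 bath, 12 math and 1 skr) are now pseudogenes. Chromosome II held 81 of the 114, 33 bath, 46 math and 2 skr genes. Counts were found for 108 genes, while math-2, math-12, math-16, math-17, math-19 and skr-6 had none in any sample. At 5 loci (math-3, bath-27, bath-9, skr-18 and bath-39) the table joined the gene to a neighbour, so that those values are shared. The filter on low counts left 84 genes for testing, 38 bath, 26 math and 20 skr. Of these, 74 reached 10 counts in 2 or more samples of both strains. Another 3, bath-13, bath-20 and bath-21, did so only in N2, and 7 (bath-10, math-21, math-34, math-37, math-42, skr-8 and skr-9) only in osm-9(ok1677), so a strain difference in these 10 is partly built into their passing. The 30 untested genes, 23 of them math genes, had at most 74 counts over all samples.

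Levels between genes were compared per kb of exon, leaving out the 5 joined loci, of which skr-18 had the highest mean, 117 CPM shared with its neighbour. Among the others, skr-1 led with a mean of 214 CPM per kb of exon. In the same unit skr-19 had 90.7, skr-2 87.6, bath-42 75.4, bath-40 64.6 and math-33 64.4. skr-1 encodes the main worm Skp1, bath-42 a BTB-MATH adaptor of CUL-3, and math-33 a ubiquitin-specific protease of the USP7 type that acts on the DAF-16 transcription factor. bath-43, now named spop-1 after the human adaptor SPOP, had 35.8 CPM per kb. bath-41 had 40.1 CPM per kb, math-27, annotated as a pseudogene, 16.9, math-4 12.6 and math-26 9.76.

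Most of these abundant genes did not pass the test between strains. skr-2 was called lower at both concentrations, but most alternative fits did not call it at 200 mM (values given further on). skr-1 had 183, 184, 188 and 190 CPM in osm-9(ok1677) at 51 mM, against 175 and 178 CPM in N2. At 200 mM it had 200, 181, 197 and 194 CPM in osm-9(ok1677), against 177 and 170 CPM in N2. The mutant samples were all above the N2 samples at each concentration, but the log2 fold changes of 0.08 and 0.16 did not pass the test (edgeR adjusted p = 0.60 and 0.31). Of all loci tested, 20.1% had all mutant samples above N2 at 51 mM and 17.5% at 200 mM. math-33 had between 262 and 282 CPM in the 8 mutant samples and between 253 and 287 CPM in the 4 N2 samples, and its log2 fold change at 51 mM was 0.00 ± 0.094 (SE). bath-42 had between 98.9 and 150 CPM in osm-9(ok1677) and between 111 and 151 CPM in N2, with a log2 fold change of -0.02 ± 0.20 (SE) at 51 mM. bath-40 and bath-44 gave log2 fold changes of 0.01 and 0.03 in the same comparison. bath-43 had 67.1, 60.7, 60.6 and 70.4 CPM in osm-9(ok1677) at 51 mM, against 52.3 and 53 CPM in N2, without overlap but with an adjusted p of 0.096. The summed level of all 114 genes averaged 1609 ± 134 CPM in osm-9(ok1677) at 51 mM (SD, n = 4) and 1691 ± 58.8 CPM in N2 (SD, n = 2), a difference within the spread of the mutant samples.

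The first comparison asked which adaptors differed between osm-9(ok1677) and N2 worms that had met no hypertonic stress. At 51 mM NaCl, 5 adaptor genes were significantly higher in osm-9(ok1677) (adjusted p of 0.05 or less), while 7.64% of all 15403 loci tested were, and 15 were significantly lower, while 4.63% of all loci were. These 20 were 23.8% of the 84 adaptors tested, and 12.3% of all loci were called in either direction. The 20 include bath-13, bath-20, bath-21 and math-37, which reached 10 counts in 2 or more samples of a single strain only. Their strain difference is partly built into their passing the filter. Most of the falls were in bath genes, of which 3 rose and 12 fell of 38 tested, with the falls at log2 fold changes between -3.48 and -1.1. Of 26 math genes 2 rose and none fell, and of 20 skr genes none rose and 3 fell. The lack of falls among math genes did not hold in every fit. DESeq2 also called math-4, math-18 and math-32, where it called 8.13% of all loci lower. They averaged 25.5, 2.24 and 3.73 CPM in osm-9(ok1677) at 51 mM, against 49.4, 4.35 and 5.71 CPM in N2. Without adjustment, 8 adaptors were higher and 20 lower with p at or under 0.05, beside 17.1% and 12% of all loci. The median log2 fold change of the 84 genes was -0.03, beside 0.05 for all loci, but the classes differed. It was -0.21 for bath, -0.02 for math and 0.40 for skr genes, of which 15 were above 0 and 5 below. The N2 libraries bear much of the weight: without N2 replicate 1 at 51 mM 11 genes were called, and without N2 replicate 2 there were 10. The 7 genes bath-1, bath-3, bath-5, bath-19, bath-21, bath-24 and math-38 were called in each of the 12 fits that left out a single sample.

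**Figure D1:**
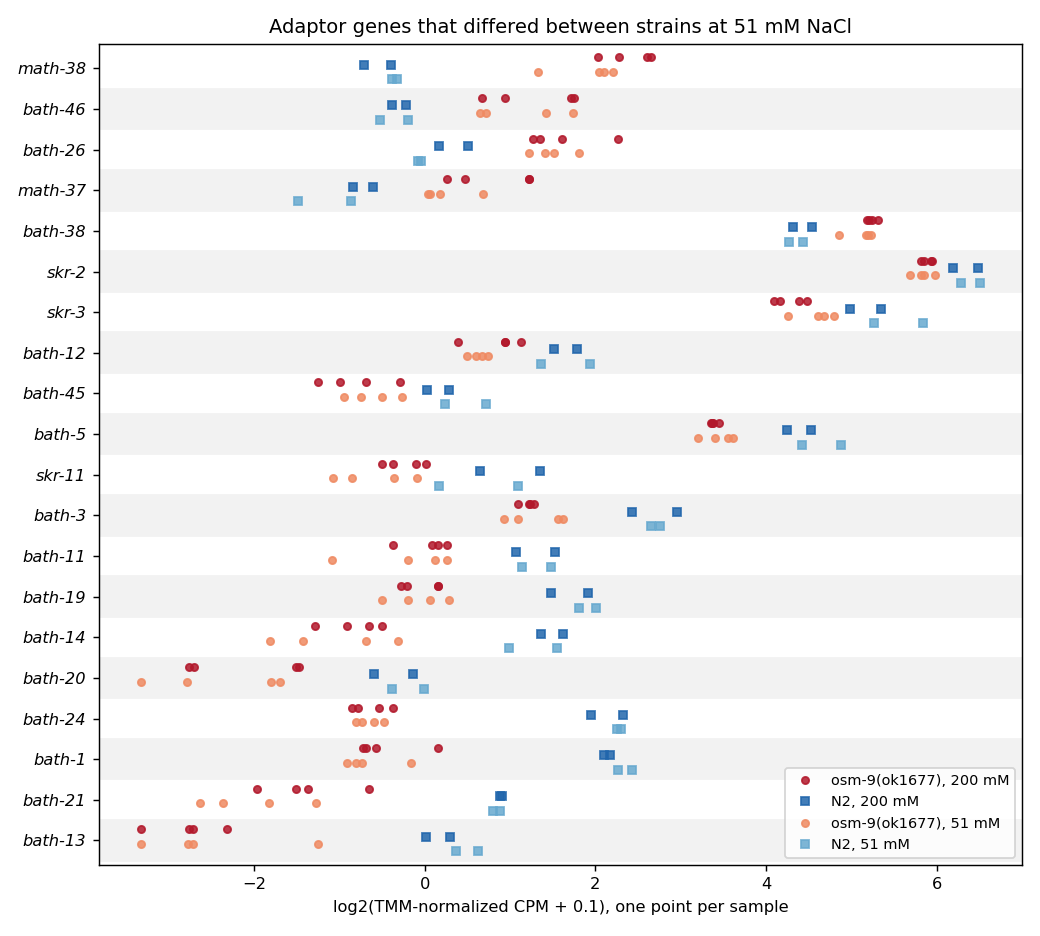
Level of the 20 adaptor genes called at 51 mM NaCl in every sample, on the x axis as log2(CPM + 0.1) after TMM normalization, with genes down the y axis, circles for osm-9(ok1677) and squares for N2. In the lowest 15 rows the circles lie left of the squares of the same NaCl concentration, and in the 5 rows at the top they lie right of them.

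bath-24 had the smallest adjusted p of the family. Its level was 0.502, 0.620, 0.562 and 0.471 CPM in osm-9(ok1677) at 51 mM, against 4.83 and 4.67 CPM in N2. The mutant samples were all well below the N2 samples, and the log2 fold change was -3.13 ± 0.24 (SE, adjusted p = 1.9e-05). bath-1, in the same cluster, had 0.502, 0.434, 0.797 and 0.471 CPM in osm-9(ok1677), against 5.28 and 4.73 CPM in N2. This was a log2 fold change of -3.15 ± 0.31 (SE).

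bath-5 was the most abundant of the fallen bath genes. It had 11.7, 9.11, 10.5 and 12.1 CPM in osm-9(ok1677) at 51 mM, against 29.4 and 21.4 CPM in N2. This was a log2 fold change of -1.23 ± 0.17 (SE, adjusted p = 0.0014). bath-3 had 2.97, 1.80, 2.86 and 2.04 CPM in osm-9(ok1677), against 6.17 and 6.68 CPM in N2, and its log2 fold change was -1.4. For both genes even the highest mutant sample stayed below the lower N2 sample, as it did in 15.2% of all loci tested.

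bath-19 had 0.776, 1.12, 0.609 and 0.943 CPM in osm-9(ok1677) at 51 mM, against 3.93 and 3.39 CPM in N2 (log2 fold change -2.09). bath-14, annotated as a pseudogene, had 0.274, 0.186, 0.703 and 0.524 CPM in osm-9(ok1677), against 1.89 and 2.83 CPM in N2 (log2 fold change -2.44). A further pair of genes was close to the floor in the mutant. bath-21 had 0.183, 0.0620, 0.0938 and 0.314 CPM in osm-9(ok1677), against 1.64 and 1.75 CPM in N2, and bath-20 had 0.0457, 0, 0.188 and 0.209 CPM, against 0.896 and 0.668 CPM in N2. Their fitted log2 fold changes of -3.31 and -2.71 rest on few reads in the mutant and are less certain than those of bath-24 and bath-1.

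bath-13 gave the lowest fitted value, a log2 fold change of -3.48 ± 0.67 (SE, adjusted p = 0.0079). It had 0.320, 0, 0.0469 and 0.0524 CPM in osm-9(ok1677) at 51 mM, against 1.19 and 1.44 CPM in N2, so 3 of the 4 mutant samples were under the floor. The other falls were smaller. bath-11, a pseudogene, had 0.776, 0.372, 0.984 and 1.1 CPM in osm-9(ok1677), against 2.69 and 2.11 CPM in N2. bath-12, also a pseudogene, had 1.42, 1.49, 1.31 and 1.57 CPM in osm-9(ok1677), against 3.73 and 2.47 CPM in N2. bath-45 had 0.731, 0.496, 0.609 and 0.419 CPM in osm-9(ok1677), against 1.54 and 1.08 CPM in N2, with an adjusted p of 0.046 that lies just inside the threshold.

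The clearest rise was in math-38, a MATH-domain gene. It had 4.02, 2.42, 4.50 and 4.19 CPM in osm-9(ok1677) at 51 mM, against 0.697 and 0.668 CPM in N2. The log2 fold change was 2.46 ± 0.34 (SE, adjusted p = 0.0013), the largest rise of the family. A pair of bath genes near it on chromosome II rose as well. bath-26 had 2.56, 2.23, 2.77 and 3.4 CPM in osm-9(ok1677), against 0.846 and 0.873 CPM in N2, and bath-46 had 1.55, 3.22, 2.58 and 1.47 CPM, against 0.597 and 0.770 CPM in N2. Both had a log2 fold change of 1.67. Their loci overlap at an end on opposite strands, and the use of strand in counting was not stated, so reads of the overlap may belong to either.

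math-37 had 1.51, 0.930, 1.03 and 0.943 CPM in osm-9(ok1677) at 51 mM, against 0.448 and 0.257 CPM in N2 (log2 fold change 1.63, adjusted p = 0.037). bath-38 was the only abundant adaptor among the rises. It had 36.4, 28.9, 37.5 and 36 CPM in osm-9(ok1677), against 19.2 and 21.5 CPM in N2, and its log2 fold change was 0.77 ± 0.14 (SE, adjusted p = 0.0061). It lies apart from the clusters, at II:10042780-10045270 on the minus strand of WBcel235.

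Among the Skp1-related genes, skr-2 and skr-3 fell. skr-2, a close copy of skr-1 that lies beside it on chromosome I, had 56.4, 57.7, 51.4 and 63.1 CPM in osm-9(ok1677) at 51 mM, against 91.2 and 78.1 CPM in N2. The log2 fold change was -0.57 ± 0.12 (SE, adjusted p = 0.013). Reads of such close copies could have been divided between them in counting, and skr-1 itself did not pass the test. skr-3, which acts with CUL-6 in the response to intracellular pathogens, had 24.3, 19, 27.7 and 25.6 CPM in osm-9(ok1677), against 38.3 and 57.1 CPM in N2 (log2 fold change -0.98, adjusted p = 0.010).

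The other partners of CUL-6 did not pass the test in the fit to the 4 groups. skr-4 had 9.82, 9.49, 8.48 and 12.2 CPM in osm-9(ok1677) at 51 mM, against 6.57 and 11.4 CPM in N2, and the groups overlapped. skr-5 had 2.65, 1.49, 1.78 and 2.88 CPM in osm-9(ok1677), against 1.19 and 1.13 CPM in N2, with a log2 fold change of 0.92 and an adjusted p of 0.17. At 200 mM skr-5 had 1.87, 1.29, 1.62 and 3.27 CPM in osm-9(ok1677), against 0.767 and 0.507 CPM in N2, which gave a log2 fold change of 1.65 and an adjusted p of 0.052, just outside the threshold. DESeq2 called it at 200 mM (adjusted p = 0.015), as did edgeR with mutant replicates 1 and 4 alone (adjusted p = 0.013). skr-11, a pseudogene, had 0.457, 0.682, 0.375 and 0.838 CPM in osm-9(ok1677) at 51 mM, against 2.04 and 1.03 CPM in N2 (log2 fold change -1.39, adjusted p = 0.042).

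**Figure D2:**
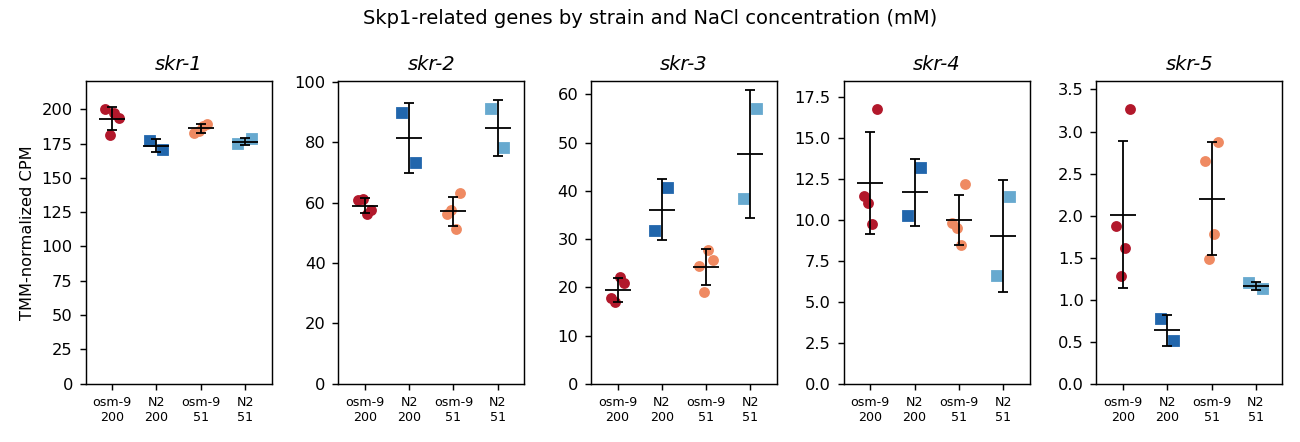
CPM after TMM normalization on the y axis for skr-1 to skr-5 in the 4 groups on the x axis (strain and mM NaCl), with a point for each sample and bars for the mean and SD. For skr-2 the 8 osm-9(ok1677) samples lie between 51.4 and 63.1 CPM and the 4 N2 samples between 73.2 and 91.2 CPM, while skr-1 lies between 170 and 200 CPM throughout.

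The second comparison put the strains side by side after 6 h at 200 mM NaCl. Here 5 adaptors were significantly higher in osm-9(ok1677), where 4.13% of all loci were, and 11 were significantly lower, where 2.3% were. In either direction the share was 16 of 84 adaptors, beside 6.43% of all loci. All 16 were among the 20 genes called at 51 mM, with the 5 rises and 11 falls in the same direction and none opposite. They include bath-13, bath-21 and math-37, which passed the filter through a single strain. The 2 comparisons used separate samples but came from a common fit and from the same pair of strains. Without adjustment, 11 were higher and 18 lower with p at or under 0.05, beside 12.6% and 11.3% of all loci. Median log2 fold changes were -0.07 for bath, 0.13 for math and 0.82 for skr genes, beside 0.05 for all loci. Without N2 replicate 1 at 200 mM 5 genes were called, without N2 replicate 2 there were 10, and without osm-9(ok1677) replicate 3 or 4 at 200 mM there were 11. bath-1, bath-14, bath-19, bath-24 and math-38 were called in each of the 12 fits that left out a single sample.

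Genes with wide gaps between strains at 51 mM had them at 200 mM as well. bath-24 had 0.480, 0.589, 0.456 and 0.675 CPM in osm-9(ok1677) at 200 mM, against 4.91 and 3.75 CPM in N2 (log2 fold change -2.96, adjusted p = 3.8e-05). bath-1 had 0.576, 1.02, 0.506 and 0.520 CPM in osm-9(ok1677), against 4.40 and 4.21 CPM in N2 (log2 fold change -2.71). math-38 had 6.0, 4.77, 4.0 and 6.18 CPM in osm-9(ok1677), against 0.511 and 0.659 CPM in N2, a log2 fold change of 3.15 ± 0.35 (SE). In each of these genes the groups were far apart at both concentrations.

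bath-5 had 10.1, 10.2, 10.8 and 10.3 CPM in osm-9(ok1677) at 200 mM, against 23 and 18.9 CPM in N2 (log2 fold change -1.01). bath-38 had 36.3, 37.7, 39.6 and 36.7 CPM in osm-9(ok1677), against 19.9 and 23.2 CPM in N2 (log2 fold change 0.80). skr-3 had 17.8, 16.9, 22.2 and 20.9 CPM in osm-9(ok1677), against 31.6 and 40.6 CPM in N2 (log2 fold change -0.89). None of the mutant samples reached into the range of N2 in these 3 genes. At 200 mM all mutant samples were above N2 in 17.5% of all loci tested and below in 16.8%.

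For skr-2 the log2 fold change was -0.46 at 200 mM (adjusted p = 0.046). skr-2 lost this call in 13 of 20 alternative fits. Among these were the edgeR exact test, the fit to the 2 groups alone and the fit with mutant replicates 1 and 4 alone. The filter of at least 10 counts in every sample and each fit without 1 of the osm-9(ok1677) samples at 200 mM lost it too. DESeq2, RLE factors and the replicate block called skr-2, and its log2 fold change lay between -0.67 and -0.31 over the alternatives. bath-11, bath-26, bath-46, math-37 and skr-3 also lost their call at 200 mM in some fits that left out an osm-9(ok1677) sample. Among the falls whose values were not yet given, log2 fold changes at 200 mM were -4.16 in bath-13, -2.51 in bath-14 and -2.49 in bath-21. They were -1.85 in bath-19, -1.54 in bath-3 and -1.34 in bath-11. Among such rises they were 1.77 in bath-46, 1.74 in math-37 and 1.4 in bath-26. The 4 genes called only at 51 mM fell below the threshold here, with log2 fold changes of -2.12 in bath-20, -1.37 in skr-11, -1.03 in bath-45 and -0.81 in bath-12 and adjusted p between 0.055 and 0.11. Whether they differed between concentrations was tested by the interaction given further on, which called none of them.

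Many of the called genes were neighbours. Chromosome II held 55 of the 84 tested adaptors, and of the 20 calls it held 5 rises and 12 falls, among them bath-38 and bath-45, which lie far from the clusters. Chromosome I held the fall of skr-2 and chromosome V those of skr-3 and skr-11. On chromosome II, 63 adaptor genes follow each other at gaps of at most 150 kb between math-45 and math-18, at II:1510287-2155220. In that run 4 of 41 tested adaptors were higher and 9 lower at 51 mM. Of 59 other tested loci there, 16 were higher and 3 lower, beside 7.64% and 4.63% of all loci tested. The median log2 fold change was -0.19 for the adaptors and 0.79 for the other loci of the run, beside 0.05 for all loci.

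Inside the run, the 34.3 kb from bath-21 to bath-14 (II:2014902-2049175) held 9 adaptor genes on the minus strand. All 8 that could be tested, bath-21, bath-1, bath-3, bath-5, bath-19, bath-20, bath-24 and bath-14, were significantly lower in osm-9(ok1677) at 51 mM, and 7 of them at 200 mM. For bath-20 and bath-21, which passed the filter on low counts through N2, the fall is partly built in. The borders of this stretch were chosen after the values were seen, so it is a description. The BTB genes btb-4 and btb-3 within it were also lower, with log2 fold changes of -1.94 and -2.01 at 51 mM. F59H6.3, F59H6.2 and cya-2, which lie between these genes, had log2 fold changes of 1.02, 0.80 and 0.30 and were not called, so not every neighbour was lower.

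A second group of neighbours, from math-38 to bath-33 (II:1577378-1606179), held 5 adaptors in 28.8 kb. Of the 4 tested, math-38, bath-46 and bath-26 rose, and bath-47 had a log2 fold change of 0.84 that did not pass the test. A C-type lectin gene inside it, clec-21, was higher at 51 mM as well (log2 fold change 3.65, adjusted p = 0.044). A group further along, bath-12, bath-13 and bath-18 (II:2514977-2524475), had its 2 tested genes lower at 51 mM. Of these, bath-13 passed the filter through N2, so its fall is partly built in. The untested pseudogene bath-18, singled out after its values were seen, had 5 counts over the 8 osm-9(ok1677) samples, against 35 counts over the 4 N2 samples.

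Some other clusters gave no call, but with so few tested genes in each this does not set them apart. The 8 bath genes from bath-28 to bath-8 (II:3343731-3381403), of which 6 were tested, gave no call in either strain comparison, with median log2 fold changes of 0.15 at 51 mM and 0.32 at 200 mM. Few of the math genes from math-15 to math-31 had enough counts for a test, and none was called. Close copies share sequence, so reads of one gene can be counted at another, and values within such clusters are uncertain to that extent.

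**Figure D3:**
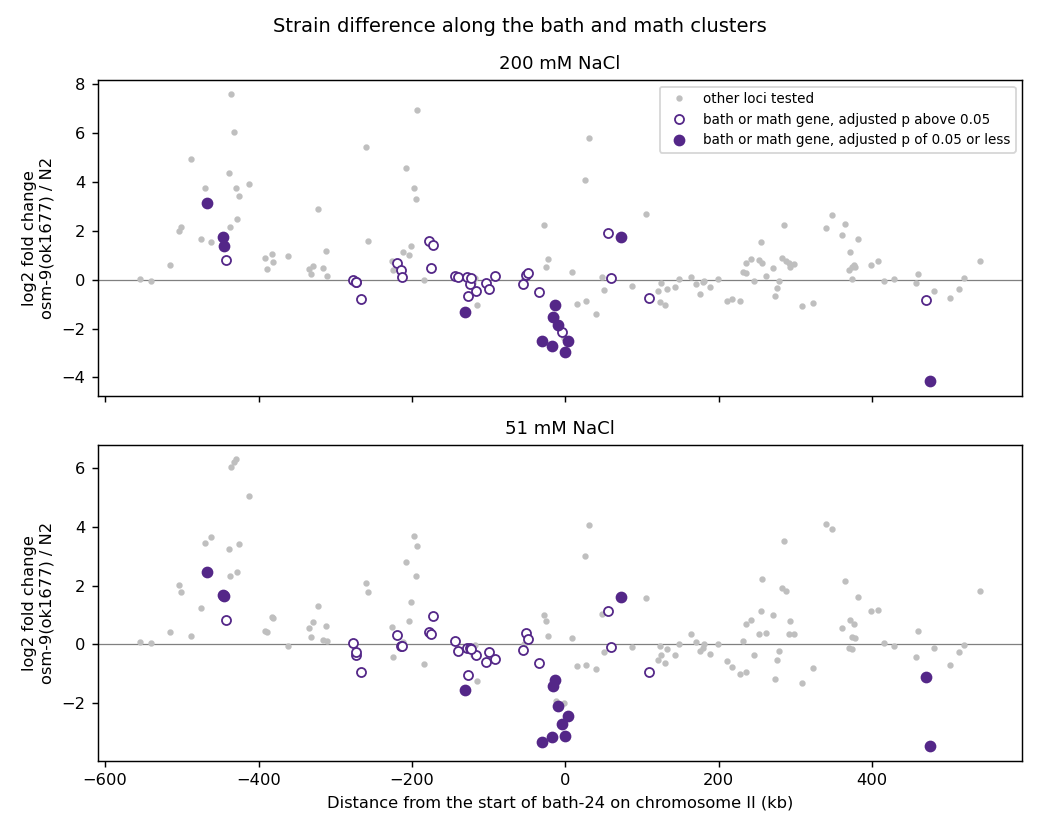
Log2 fold change of osm-9(ok1677) over N2 on the y axis against distance from the start of bath-24 on chromosome II on the x axis (kb), for 200 mM NaCl above and 51 mM NaCl below. Filled circles are bath and math genes with an adjusted p of 0.05 or less, open circles are the other tested ones and grey points are other tested loci. The filled circles around 0 kb lie below the zero line and the filled ones at the left end lie above it.

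The third comparison asked how the adaptors of osm-9(ok1677) worms responded to 200 mM NaCl. In the fit to the 4 groups none of the 84 was called by edgeR, where 0.351% of all loci were, and DESeq2 called none. With p at or under 0.05 before adjustment, 3 were higher and none lower, beside 2.66% and 2.92% of all loci. Same-numbered mutant samples deviated together, and with the replicate number as a block the 3 genes, math-10, math-14 and bath-47, were significantly higher at 200 mM. This pairing was read from these same data. The block also joined N2 to mutant samples by number, and these are not known to pair. Of all loci, 1.03% were called higher in that blocked fit.

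math-14 had 26.3, 14.3, 11.5 and 13 CPM in osm-9(ok1677) at 200 mM, against 12.2, 5.52, 6.23 and 5.55 CPM at 51 mM in the same order of replicates. Replicate 1 was the highest sample of each group, and its value at 51 mM lay within the range at 200 mM, so the groups overlapped. The ratios of 200 mM to 51 mM were 2.16, 2.59, 1.84 and 2.35, and the log2 fold change was 1.14 ± 0.33 (SE, adjusted p = 0.33), or 1.13 with the block (adjusted p = 0.016). In N2 it had 13.7 and 9.43 CPM at 200 mM, against 4.68 and 6.99 CPM at 51 mM.

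math-10 lies next to math-14 in the block of math genes, and like bath-47 it was singled out after its values were seen. It had 2.98, 1.39, 1.77 and 2.86 CPM in osm-9(ok1677) at 200 mM, against 1.64, 0.434, 0.656 and 0.419 CPM at 51 mM (log2 fold change 1.48, adjusted p = 0.31, and 0.030 with the block). In bath-47 the values were 5.23, 9.86, 16.1 and 12.1 CPM at 200 mM, against 3.06, 6.51, 7.92 and 6.08 CPM at 51 mM (log2 fold change 0.88, adjusted p = 0.75, and 0.0073 with the block). Each of the 4 same-numbered pairs was higher at 200 mM in all 3 genes, by at least 1.51 times. The 3 genes stand here for their unadjusted p in this same comparison, so the pairs are no separate evidence.

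In N2 none of the 84 adaptors was called for the response to 200 mM NaCl, where 0.195% of all loci were, and none had an unadjusted p at or under 0.05, beside 4.96% of all loci. math-10, math-14 and bath-47 had log2 fold changes of 1.04, 0.99 and 0.91 in N2, with both same-numbered pairs higher at 200 mM, but 2 samples a group left standard errors of 0.47 to 0.68. DESeq2 called no adaptor in N2 either. The strain difference in the NaCl response, the interaction of strain and concentration, was called for none of the 84, with 0.00649% of all loci called, and none had an unadjusted p at or under 0.05, beside 1.8% of all loci. DESeq2 again called none. Interaction values of the adaptors were between -0.69 and 1.16 on the log2 scale, with a median of 0.17, beside -0.01 for all loci.

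**Figure D4:**
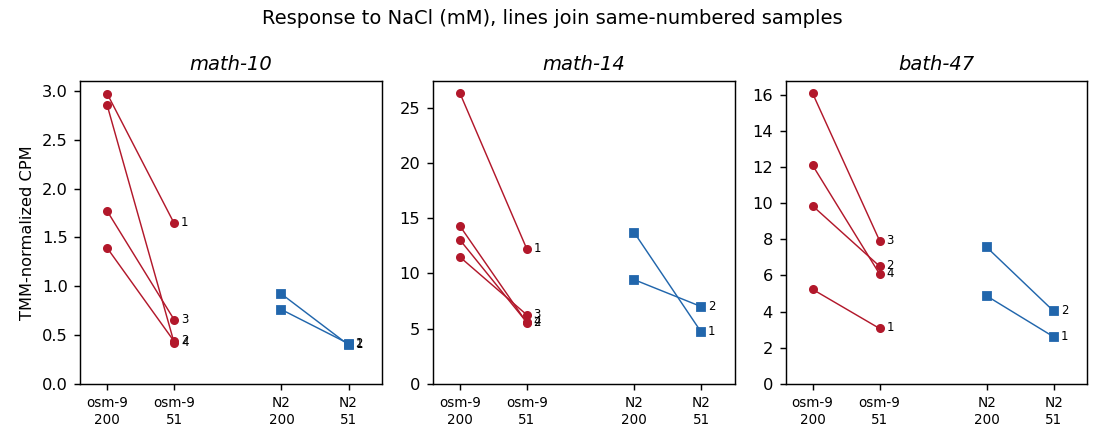
CPM after TMM normalization on the y axis for math-10, math-14 and bath-47 at 200 mM and 51 mM NaCl in osm-9(ok1677) and N2 on the x axis, with lines joining samples of the same replicate number. All 18 lines are higher at the 200 mM end, and the mutant pairs of math-14 differ by 1.84 to 2.59 times.

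Many skr genes varied more among samples of a group than between strains. These were named after their values were seen. skr-7 had 9.04, 2.17, 0.703 and 9.69 CPM in osm-9(ok1677) at 51 mM, against 4.38 and 0.668 CPM in N2. At 200 mM it had 7.73, 4.77, 0.860 and 6.96 CPM in osm-9(ok1677), against 3.32 and 0.710 CPM in N2. Replicates 1 and 4 of the mutant and replicate 1 of N2 were thus the high samples at both concentrations.

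skr-8 showed the same order with 2.37, 0.124, 0.0938 and 2.57 CPM in osm-9(ok1677) at 51 mM, against 1.69 and 0.103 CPM in N2. In skr-10 the values were 6.94, 3.29, 1.5 and 6.76 CPM in osm-9(ok1677), against 2.79 and 0.925 CPM in N2. Mutant replicates 1 and 4 stood above replicates 2 and 3 at both concentrations, and N2 replicate 1 above replicate 2, in 11 of the 20 tested skr genes: skr-5, skr-7, skr-8, skr-9, skr-10, skr-12, skr-13, skr-14, skr-15, skr-16 and skr-17. This order held in 7 of 38 bath genes, none of 26 math genes and 13.03% of all loci tested. skr-7 and skr-14 lie side by side on chromosome V, and skr-13, skr-9, skr-8 and skr-12 within a few kb on chromosome IV, so close copies may share reads here too. Their products, like those of skr-10 and skr-15, are variants of Skp1, and skr-7 to skr-10 are needed for normal development.

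The 12 oocyte genes stood in the same order. They summed to 4170, 2877, 1649 and 4454 CPM in osm-9(ok1677) at 51 mM, against 4433 and 2623 CPM in N2, with none of the 12 at 0 in any sample. At 200 mM they summed to 4396, 3594, 1711 and 4277 CPM in osm-9(ok1677), against 4850 and 2737 CPM in N2. The part of oocyte content in the skr values was not tested. Both strains held high and low samples, and none of the 11 genes passed the test between strains in the fit to the 4 groups, which takes no account of replicate number: skr-7 had a log2 fold change of 1.1 ± 1.1 (SE, adjusted p = 0.55) and skr-10 one of 1.31 ± 0.76 (SE, adjusted p = 0.27) at 51 mM, and at 200 mM these were 1.33 (adjusted p = 0.53) and 1.44 (adjusted p = 0.29). With mutant replicates 1 and 4 alone against N2, 17 adaptors were called at 51 mM and 15 at 200 mM, beside 20 and 16 with all samples. N2 still held a high and a low sample in that fit, so these counts cannot show the part of the replicate order in the strain calls.

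**Figure D5:**
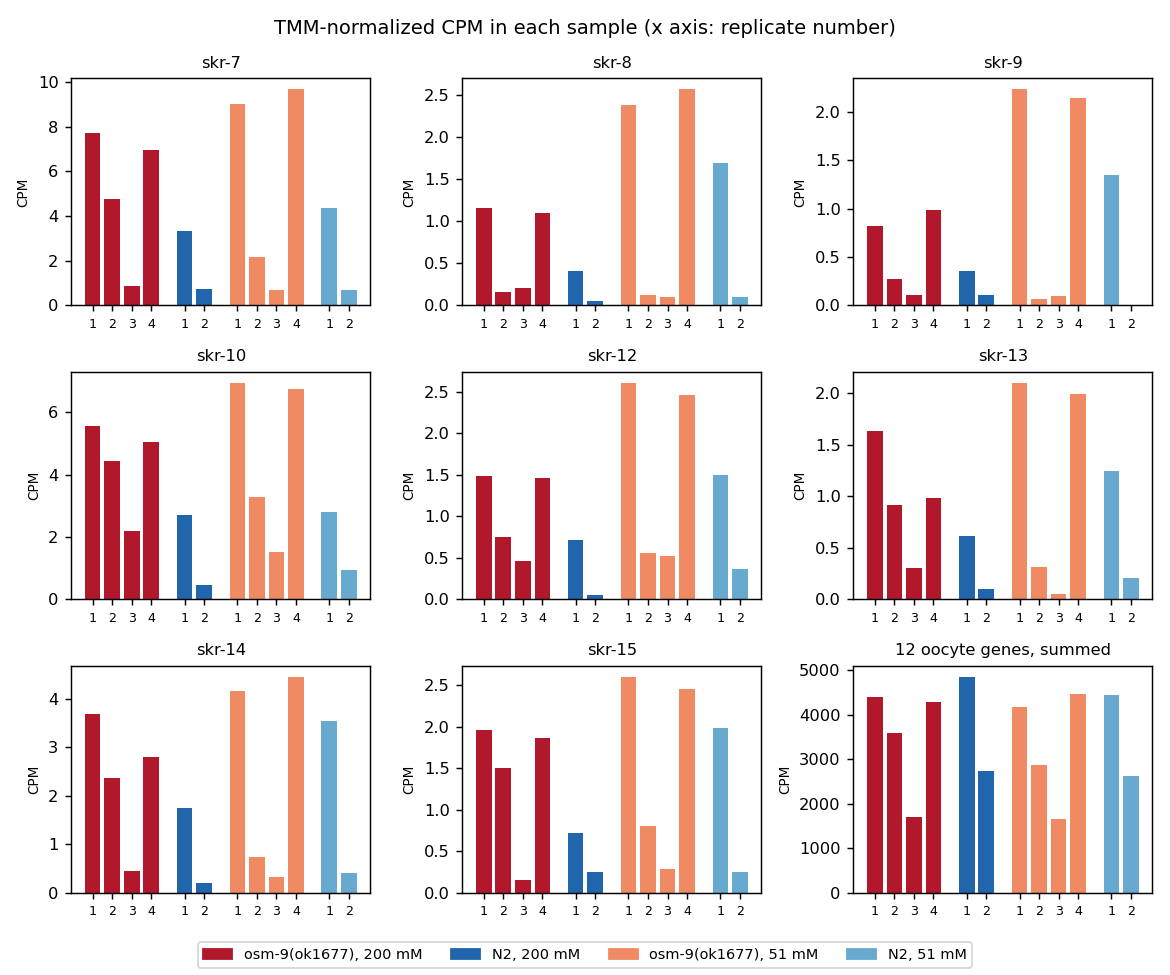
CPM after TMM normalization on the y axis for 8 skr genes and for the sum of 12 oocyte genes, with a bar for each sample and replicate numbers on the x axis. In every panel mutant replicates 1 and 4 stand above replicates 2 and 3 of their group and N2 replicate 1 stands above replicate 2; the oocyte sum ranges between 1649 and 4850 CPM.

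Few other parts of the ligases that use these adaptors were called. Of 33 cullins, RING subunits, neddylation genes, other BTB adaptors, F-box proteins and substrates on a fixed list, all tested, 1 was higher and 1 lower in osm-9(ok1677), the same genes at 51 mM and at 200 mM. Of all loci, 7.64% were higher and 4.63% lower at 51 mM, and 4.13% and 2.3% at 200 mM, so at 200 mM the share of the list was near that of all loci. The median log2 fold change of the list was 0.04 at 51 mM, beside 0.05 for all loci. Neither NaCl comparison called any. cand-1, the exchange factor that removes adaptors from CUL-1, averaged 132 ± 8.0 CPM in osm-9(ok1677) at 51 mM (SD, n = 4) and 224 ± 0.87 CPM in N2 (SD, n = 2), a log2 fold change of -0.76 (adjusted p = 7.6e-04). At 200 mM its log2 fold change was -0.83.

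mfb-1, an F-box gene related to the muscle atrophy F-box gene of mammals, averaged 24.4 ± 4.9 CPM in osm-9(ok1677) at 51 mM (SD, n = 4) and 10.02 ± 1.9 CPM in N2 (SD, n = 2), a log2 fold change of 1.28 (adjusted p = 0.014), and the log2 fold change was 1.36 at 200 mM. Without either N2 sample at 51 mM only cand-1 was called there. The cullins that the adaptors bind did not pass the test. At 51 mM the log2 fold changes were 0.06 for cul-1, -0.12 for cul-3 and 0.08 for cul-6, and -0.15 for their RING partner rbx-1. mel-26, a BTB-MATH adaptor without a bath name that brings the katanin subunit MEI-1 to CUL-3, had a log2 fold change of 0.03.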

How the data were processed

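The deposited values were whole-number read counts, without normalization, for 41420 loci in 12 samples. The authors made them from polyA+ paired-end reads with Tophat 1.4.1 on the WS235 assembly and Cufflinks 2.0.1 with Ensembl genes, and used edgeR 3.2.4 for their own tests; whether the counting used strand is not given in the sources used here. Positions and gene types came from WBcel235. Groups and replicate numbers were taken from the labels. The paper describes independent experiments, but p-values measure only the spread between these samples.

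Loci were filtered with filterByExpr (minimum count 10, minimum total 15), which left 15403, scaled with TMM and fitted over the 4 groups by the quasi-likelihood method of edgeR 4.0.16 in R 4.3.3. Tests were two-sided with Benjamini-Hochberg adjustment over all loci tested, at 0.05, and the procedure was tested on simulated data. Alternatives were DESeq2 1.42.0, RLE factors, the edgeR exact test, other filters, fewer samples and the replicate block. The deviations of same-numbered osm-9(ok1677) samples at 200 mM and 51 mM NaCl correlated at 0.70, 0.52, 0.81 and 0.59. Those 4 numbers were therefore taken to pair the samples, from the data alone. Some differently numbered samples correlated as well. Replicate 1 at 200 mM with 4 at 51 mM gave 0.50, 4 with 1 0.34, 3 with 2 0.38 and 2 with 3 0.17, and the rest were negative. No replicate pair agreed within sampling noise.

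Genes named were every adaptor called in a comparison, skr-1 to skr-5, math-33, bath-42 and the 5 highest per kb of each class. Members and lists were chosen with earlier results of these data known.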

Additional observations from a re-analysis of the deposited data

Results flagged for a closer look

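In 4 of 70 groups of 4 samples looked at, a single sample stood apart from the other three, and chance alone flags about 1 in 20 such groups. math-14 had 12.2 CPM in osm-9(ok1677) replicate 1 at 51 mM NaCl, with the others between 5.52 and 6.23 CPM. bath-1 had 1.02 CPM in osm-9(ok1677) replicate 2 at 200 mM, with the others between 0.506 and 0.576 CPM, all below N2. bath-13 had 0.320 CPM in osm-9(ok1677) replicate 1 at 51 mM, with the others between 0 and 0.0524 CPM. bath-38 had 28.9 CPM in osm-9(ok1677) replicate 2 at 51 mM, with the others between 36 and 37.5 CPM and both N2 samples lower.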

How the results depend on the processing

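The 20 adaptors called between strains at 51 mM NaCl became 10 with at least 10 counts required in every sample, a filter that removed 10 of them from the test or from the calls, and 12 with only the 2 groups in the fit. Leaving out a single sample gave between 10 and 22. The 16 called at 200 mM became 8 with at least 10 counts in every sample, 29 at an unadjusted p, and between 5 and 16 without a single sample. DESeq2 called 25 and 20, which held all 20 and all 16, and it called 18.5% and 11.8% of all loci, beside 12.3% and 6.43% with edgeR. In osm-9(ok1677) the 0 calls for NaCl became 3 at an unadjusted p and 0 to 1 without a single sample, the 1 coming without replicate 1 at 51 mM. The pathway list gave 1 to 2 calls without a single sample.

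With the replicate block, calls for NaCl in osm-9(ok1677) were 3, those between strains at 51 mM 26 and those at 200 mM 28. The added ones included skr-7 and skr-10 at 51 mM, and skr-5, skr-7, skr-10, skr-12, skr-14, skr-15 and skr-16 at 200 mM, all higher in osm-9(ok1677). N2 and osm-9(ok1677) share only 2 numbers, which are not known to pair samples; the block raised calls among all loci to 26.3% and 19.1% as well. It changed no other count of adaptors.

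Among single genes 649 values kept their side of the threshold under an alternative, 109 did not, 4 passed it newly and none turned round. Fits without an N2 sample leave 1 N2 sample, assumed to vary like the other groups. The cause of each change was not tested. At this depth levels under 0.140 to 0.188 CPM cannot be told from 0.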
